A study of Trachinotus blochii with 12 samples.

Results

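In the golden pompano Trachinotus blochii, a warm-water fish of aquaculture, some gene models were read at a high level in brain and hardly at all in liver. They were chosen by level alone: a mean deposited value of at least 200 over 6 brain libraries, and a mean over 6 liver libraries below 5% of that brain mean. The rule found 79 of 18490 gene models. They made up 33.5% of the 236 gene models with a brain mean of at least 200, and the other 157 had more than the permitted level in liver. "Restricted" refers to these tissues only, since no others were analysed here.

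The libraries came from 2-month-old fish in 3 tanks of 80, whose oxygen had been lowered within 2 h to 0.9 mg/L (given as ± 0.1). Tol fish were still normal after 24 h, and Intol fish were dying within 1 h, floating and out of balance, when they were taken. Each status gave 3 brain and 3 liver libraries, from 42 fish taken per status (14 per tank). Both statuses were under hypoxia and fasted, no normoxic library was analysed, and Tol fish had been in hypoxia longer, so status and time cannot be told apart. How many fish stand behind a library, and from which tank, is not in the labels, so each p-value below measures the spread between these samples, which may be technical. The series compared the mRNA of tolerant with intolerant fish in each tissue.

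Brain tissue is a mixture of neurons, which signal through synapses, and of glia, which insulate, feed and buffer them. Transcripts that only such cells make in quantity, for cytoskeleton, synaptic vesicles, ion channels or myelin, are typical of vertebrate brain and near absent from hepatocytes. Brain is also among the tissues most dependent on oxygen, because firing neurons need a steady supply of ATP. Gene models carry only an identifier in the files, without a gene name, so what the members encode is not given here, and neither their role nor a marker check of the tissue labels can be reported.

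The values were read as FPKM, which divides the fragments of a model by its length and by the size of the library, so that levels of different gene models can be set side by side. Over all gene models, log2 values of a liver and a brain library correlated at 0.453 to 0.473, and those of brain libraries at 0.982 to 0.994. Intol brain replicate 3 stood apart, with correlations of 0.982 to 0.987 to the other brain libraries against 0.989 to 0.994 among the rest. Brain shares and counts that move without it are given both ways. The summed values per brain library lay between 360680 and 373167, and those per liver library between 581739 and 622240. The read depth behind them is unknown. The rule for members compared liver with brain values as deposited, without scaling for this difference in sums. With each library scaled to the same sum, the rule found 120 gene models in place of 79.

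The members held a sizeable share of the brain signal in 0.427% of the gene models: their summed values were 11.1% of all brain values, as the mean of 6 libraries. A share above their part of the models follows from the rule, which asks for a brain mean of at least 200. By library the share was 10.86%, 10.98% and 11.05% in Tol brains, and 11.73%, 11.37% and 10.86% in Intol brains. The mean was 10.96% ± 0.10 in Tol and 11.32% ± 0.44 in Intol brains (SD, n = 3 each). The groups overlapped through Intol replicate 3 alone, and without it the Intol mean was 11.5%, with both remaining libraries above the 3 Tol libraries. Without Intol replicate 1, the library with the highest share, the Intol mean was 11.1% and the groups still overlapped. No test was made of this sum, because its members had been chosen with earlier results known. In bulk tissue, fewer cells of a type and less RNA per cell cannot be told apart. The share of the other 157 abundant gene models was 25.2% ± 0.1 in Tol and 24.3% ± 0.3 in Intol brains, with every Tol library above every Intol library.

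In liver the same members summed to 0.0479% ± 0.0064 of the values in Tol and 0.0488% ± 0.0021 in Intol livers (SD, n = 3 each). The single libraries overlapped, with Tol livers between 0.0406% and 0.0529% and Intol livers between 0.0473% and 0.0512%. The plot of shares shows both tissues on scales that start at 0.

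**Figure D1:**
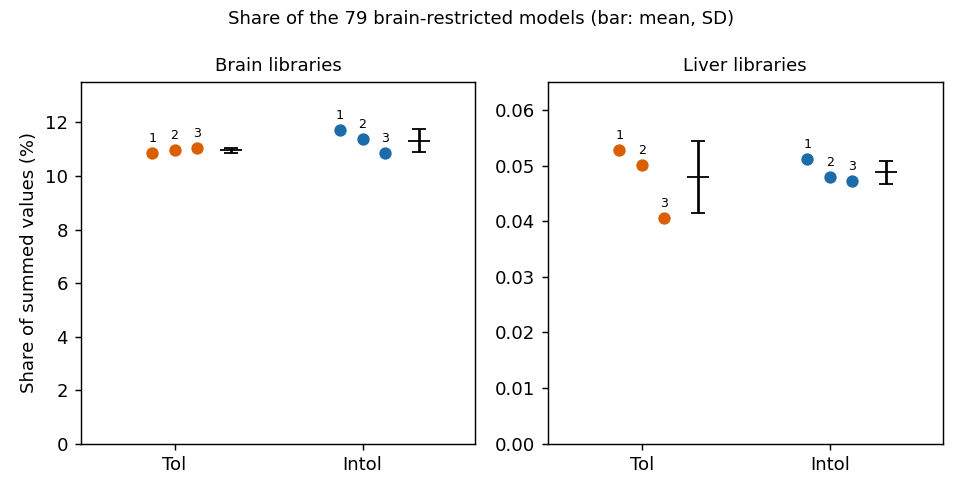
Share of the 79 brain-restricted gene models in the summed values of each library (percent; the scales differ between the panels), for brain (left panel) and liver (right panel), with Tol left of Intol. Points are libraries marked with their replicate number, and bars give the mean and SD of 3 libraries; Intol brain replicate 3 is level with the lowest Tol brain at 10.86%, while the other Intol brains are above all Tol brains.

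Within the members, the signal was spread over many models. The most abundant model held 7.20% of their summed brain means, the first 10 held 36.4%, the first 20 held 54.7% and the first 40 held 74.6%. Brain means ran from 201 to 2945 with a median of 350.2. They lay from 200 to 300 for 29 members, from 300 to 500 for 29, from 500 to 1000 for 11 and at 1000 or more for 10. Of the 10 gene models with the highest brain means over all models, 6 were members, and of the first 100 there were 22. The value was at least 200 in every brain library for 69 members, and the lowest single value was 147.

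The most abundant member was Trachinotus_GLEAN_10011443, which ranked 2 or 3 among all gene models in each brain library. Its values were 2987, 2977 and 3205 in Tol brains, and 2772, 2703 and 3027 in Intol brains. The groups overlapped, and the change, Tol minus Intol, was 0.11 ± 0.05 on the log2(value + 1) scale (SE; limma, adjusted p = 0.356). In liver it was at most 0.52 in Tol and at most 0.46 in Intol libraries.

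Trachinotus_GLEAN_10004310 had 2204, 1990 and 1949 in Tol brains, and 1955, 1776 and 1607 in Intol brains. The lowest Tol brain was just below the highest Intol brain, with a mean of 2048 ± 137 in Tol and 1779 ± 174 in Intol brains (SD, n = 3 each) and a log2 change of 0.21 (limma, adjusted p = 0.253). Trachinotus_GLEAN_10007483 had 1593, 1601 and 1683 in Tol brains, and 1774, 1729 and 1550 in Intol brains. Its Tol values lay within the range of its Intol values, and its log2 change was -0.05 (limma, adjusted p = 0.706).

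Trachinotus_GLEAN_10008556 had 1619, 1485 and 1403 in Tol brains, and 1441, 1314 and 1273 in Intol brains, a log2 change of 0.16 (limma, adjusted p = 0.285). Its groups overlapped in 1 library each. These 4 models were all below 0.6 in every liver. The fifth most abundant, Trachinotus_GLEAN_10002223, differed from them in having a clear liver level, described further on. In brain it had 1393, 1354 and 1443 in Tol, and 1262, 1396 and 1278 in Intol libraries, which overlapped (log2 change 0.09, limma, adjusted p = 0.423).

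The liver level divided the members. For 45 of the 79 every liver value was below 1, and 3 were listed at 0 in all 6 livers. The liver mean was below 0.1% of the brain mean for 43 members, among them 26 below 0.01%, and between 1% and 5% for 24. A liver mean of 10 or more was found for 11 members, and the highest single liver value was 61.3. The plot of levels shows that the members cover several orders of magnitude in liver.

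**Figure D2:**
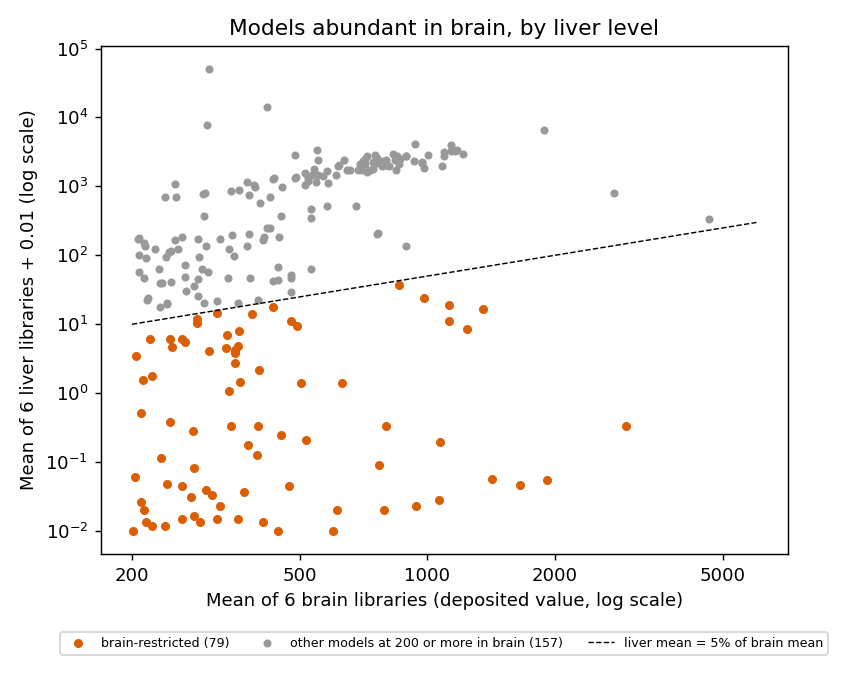
Mean of the 6 liver libraries plus 0.01 (vertical axis, log scale) against mean of the 6 brain libraries (horizontal axis, log scale), both as deposited values, for the 236 gene models with a brain mean of at least 200. The 79 brain-restricted models lie below the dashed line at 5% of the brain mean, and 43 of them are below 0.1% of it.

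At the edges of the rule, the members with the lowest brain means were at 201 and 203, and the nearest models outside with a low liver level were at 199.6 and 197.5. The members with the highest relative liver level were at 4.58% and 4.34% of their brain mean, and the nearest models outside were at 5.65% and 5.71%.

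The order of levels was kept between libraries. Across the 79 members, which are not independent replicates, log2 levels of the 15 pairs of brain libraries correlated at r = 0.942 to 0.992 and rho = 0.863 to 0.979, as a description. Of the 10 highest members 8 were the same in every brain library. The spread within a group, as the coefficient of variation (CV, the SD divided by the mean), had a median of 5.15% in Tol and 5.93% in Intol brains. For the other 157 abundant models it was 3.38% in Tol and 4.91% in Intol brains, and for the 14146 models tested it was 7.44% and 9.62%.

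The most variable members shared an order of libraries. Among the 10 members with the highest CV in Tol brains, 12.4% to 24.6%, Tol replicate 2 was the highest Tol library for 7 and Intol replicate 3 the highest Intol library for 7. A common order, with Tol replicate 1 lowest, Tol replicate 2 highest, Intol replicate 2 lowest and Intol replicate 3 highest, was found for 6 of these 10. It was found for 8 of the 79 members, against 2 of the 157 other abundant models and 3.94% of all models tested, counts made after the order had been seen. The summed values of the 6 were 1366, 1958 and 1633 in Tol brains, and 1961, 1788 and 2183 in Intol brains. Their spread follows from how the 6 were picked, so it is a description only. None of the 6 exceeded 0.04 in any liver.

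**Figure D3:**
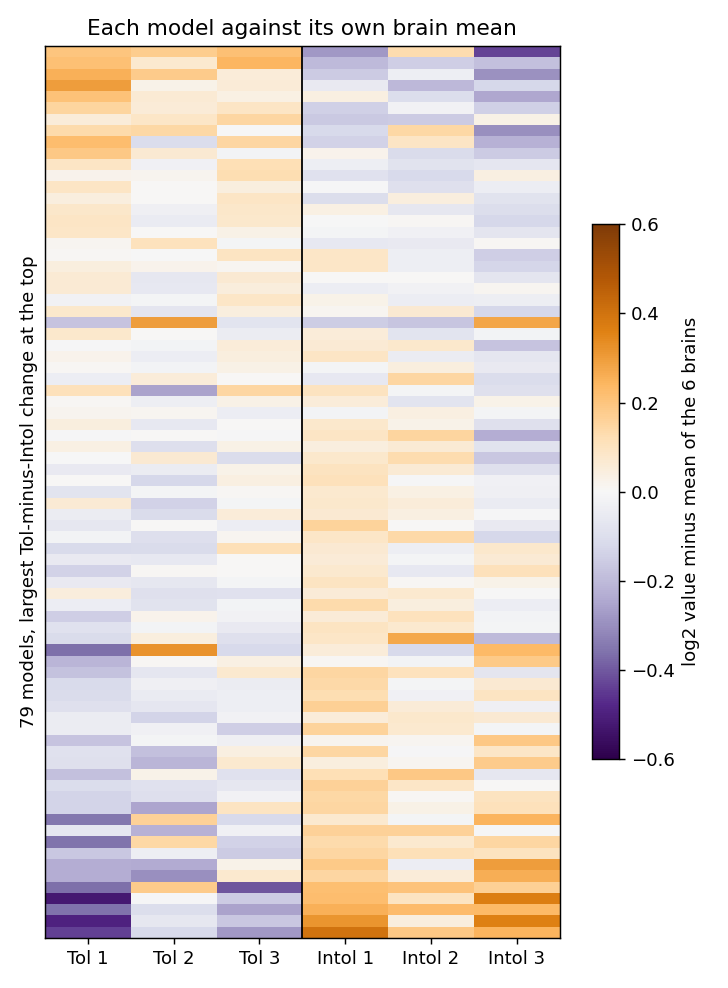
Log2 value of each of the 79 brain-restricted models minus its own mean over the 6 brain libraries (colour), with libraries as columns, the 3 Tol libraries left of the 3 Intol libraries, and models as rows ordered by their Tol-minus-Intol change, the largest at the top. Most rows are pale, and the strongest colours are in the rows at both ends and in a few rows with Tol replicate 2 and Intol replicate 3 high together.

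Between Tol and Intol brains the members were close to level. All 79 passed the filter on low values, and none had an adjusted p under 0.05 (limma), where 0.0212% of the 14146 models tested did, 0.00707% higher and 0.0141% lower in Tol. The smallest adjusted p of a member was 0.0842 (limma), for Trachinotus_GLEAN_10018213. It had 218, 261 and 235 in Tol brains, and 335, 328 and 330 in Intol brains, a log2 change of -0.48. At an unadjusted p under 0.05 (limma) there were 21 of the 79 members, against 17% of all models tested and 56 of the 157 other abundant models. Of the 21 members 8 were higher in Tol, against 10.9% of all models tested, and 13 were lower, against 6.1%. Of the 56 other abundant models 51 were higher and 5 were lower. Without Intol brain replicate 3 there were 26 members, against 20.5% of the models then tested. The change was below 1.1-fold in either direction for 50 members and below 1.2-fold for 69. Its range was from -0.55 to 0.39 on the log2 scale. The median size of the log2 change, without sign, was 0.104 for members, 0.112 for all models tested and 0.115 for the other 157 abundant models. Being close to level was thus not particular to the members.

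A p above the threshold does not show that levels are equal, so the 95% interval of each change was also read. The interval lay within 1.5-fold in both directions for 73 of the 79 members, against 84.9% of all models tested, which include low-valued ones, and for 150 of the 157 other abundant models. Without Intol brain replicate 3 it did so for 74 members. All 79 intervals lay within 2-fold, against 97.1% of all models tested. Of the 6 members whose interval went beyond 1.5-fold, 5 were lower and 1 was higher in Tol brains.

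**Figure D4:**
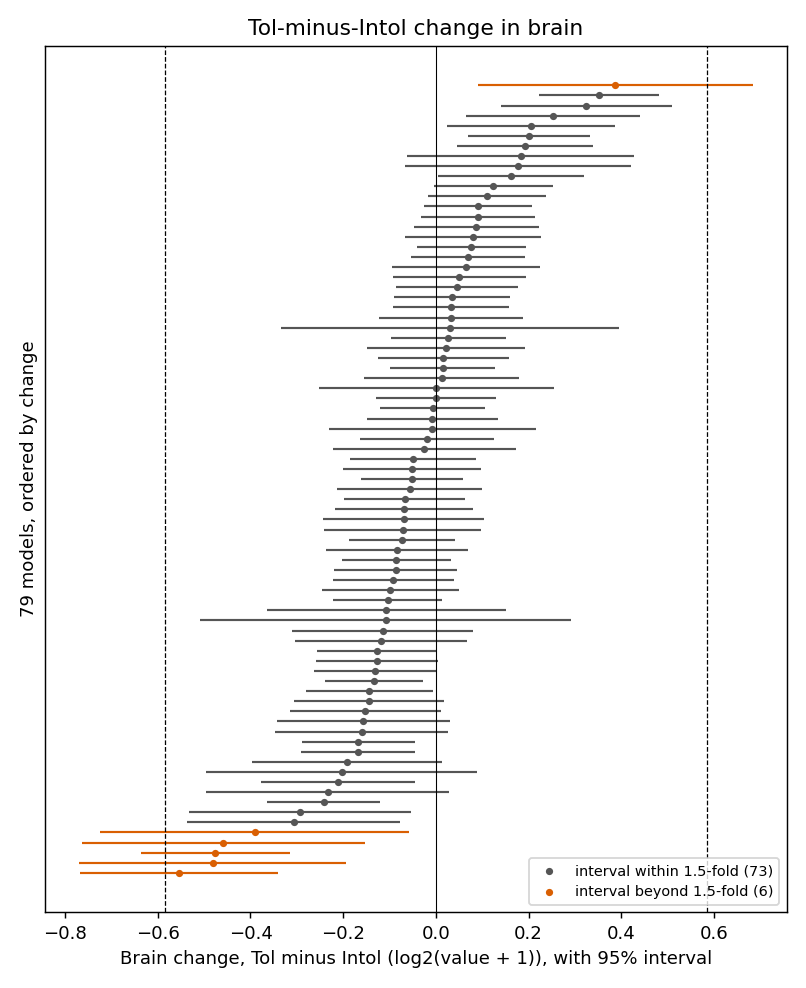
Tol-minus-Intol change in brain of the 79 brain-restricted models on the log2(value + 1) scale (horizontal axis), each with its 95% interval from limma, ordered by change along the vertical axis. Dashed lines mark 1.5-fold; 73 intervals lie between them and 6 cross one of them.

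Small differences leaned to lower values in Tol. The change was below 0 for 47 of the 79 members (59.5%), and for 39.9% of all models tested and 23.6% of the other 157 abundant models. The median change was -0.05 for members and 0.04 for all models tested. After median-ratio scaling of the libraries 58 members and 49.0% of all models tested were below 0, and the medians were -0.09 for members and 0.00 for all. Without Intol brain replicate 3 it was below 0 for 54 members and 36.4% of all models tested. The 3 Tol values lay wholly below the 3 Intol values for 16 members, against 7.78% of all models tested, and wholly above for 9, against 15% of all models tested. Of the other 157 abundant models 5 lay wholly below and 64 wholly above. Without Intol brain replicate 3 the Tol values lay wholly below the remaining Intol values for 30 members, against 12.2% of all models tested. They lay wholly above for 11, against 27.8%. For the other 157 abundant models it was 17 below and 81 above. The median change of members minus that of all models tested was -0.09. It was -0.12 without Intol brain replicate 3 and -0.06 without Intol brain replicate 1. These counts and medians describe the members and were given no test, for the reason stated above.

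The members furthest from level in brain had modest differences. Trachinotus_GLEAN_10002250 had 147, 184 and 164 in Tol brains, and 263, 227 and 236 in Intol brains. Each Tol library was below each Intol library, and the log2 change was -0.55 ± 0.09 with a 95% interval from -0.77 to -0.34 (SE; limma, adjusted p = 0.0961). With all 12 libraries in 1 fit its adjusted p was 0.0413 (limma), at the same change and a larger SE of 0.11. That fit takes 1 spread per model over both tissues and gave 158 calls over all brain models, in place of 3. The call of Trachinotus_GLEAN_10002250 thus depends on the fit used. It is a member near the lower edge of the rule, and in liver it was listed at 0.15 at most.

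Trachinotus_GLEAN_10013092 had 225, 303 and 283 in Tol brains, and 395, 327 and 408 in Intol brains. The groups did not overlap, although the libraries within each differed widely, and the log2 change was -0.48 ± 0.12 (SE; limma, adjusted p = 0.157). It is one of the 6 members with the common order of libraries described above. In liver it was listed at no more than 0.04 in Tol and at 0 in all Intol libraries.

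On the higher side, Trachinotus_GLEAN_10000670 had 322, 317 and 325 in Tol brains, and 231, 307 and 208 in Intol brains. Tol libraries were nearly alike, with a CV of 1.35%, while Intol libraries had a CV of 20.8%, with replicate 2 close to the Tol level. The log2 change was 0.39 ± 0.13 (SE; limma, adjusted p = 0.211). Without Intol brain replicate 2 it was 0.55 (limma, adjusted p = 0.0466), the only library whose removal led to a call of a member.

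Trachinotus_GLEAN_10014793 had 723, 657 and 737 in Tol brains, and 543, 563 and 549 in Intol brains. All Tol libraries were above all Intol libraries, with a mean of 706 ± 43 in Tol and 552 ± 10 in Intol brains (SD, n = 3 each) and a log2 change of 0.35 ± 0.06 (SE; limma, adjusted p = 0.0844). The model numbered next, Trachinotus_GLEAN_10014794, is also a member and was looked at after its values had been seen. It had 1091, 1179 and 1301 in Tol brains, and 1370, 1330 and 1176 in Intol brains, which overlapped (log2 change -0.12, limma, adjusted p = 0.487). Of the summed values of this pair the first model held 35.8% to 39.9% in Tol and 28.4% to 31.8% in Intol brains, while the sum was 1896 ± 124 in Tol and 1844 ± 103 in Intol brains (SD, n = 3 each). This was the only pair of consecutively numbered members. Reads that both models could share were not examined here, so the division between them is uncertain.

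In liver, where the members are low by choice, 33 of the 79 passed the filter on low values. The other 46 were not tested there. Each of the 33 reached a value of 1 in at least 1 library of both statuses. Of these, 4 were higher and 6 were lower in Tol than in Intol livers at an adjusted p under 0.05 (limma). Of the 9109 models tested, 7.49% were higher and 29.6% were lower. After median-ratio scaling 10 members were higher, against 16.6% of all models tested, and 4 were lower, against 17%. The median change of all models tested moved to 0.03 in place of -0.20. Of the members called without scaling, all 4 higher and 4 of the 6 lower ones were also called under that scaling. The 3 Tol livers lay wholly above the 3 Intol livers for 6 members and wholly below for 9, against 12.3% and 40.1% of all models tested.

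Trachinotus_GLEAN_10004754 was higher in Tol livers, at 41.8, 32.5 and 16.3 in Tol, against 6.38, 13.0 and 5.44 in Intol livers. The lowest Tol liver was above the highest Intol liver, the ratio of the means was 3.66-fold and the log2 change was 1.74 ± 0.40 (SE; limma, adjusted p = 0.0139). Its adjusted p was 0.0509 without Intol liver replicate 1 and 0.0543 without Tol liver replicate 1 (limma). After median-ratio scaling of all liver libraries the log2 change was 2.02 (limma, adjusted p = 0.00966). In brain this model was at 1036, 1154 and 1049 in Tol, against 1189, 1352 and 975 in Intol libraries, which overlapped.

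Trachinotus_GLEAN_10000670 had the highest log2 change of the members in brain, where it was not called, and was called higher in Tol livers. It had 18.5, 16.8 and 12.2 in Tol livers, and 3.81, 7.78 and 3.23 in Intol livers. The groups were apart, with a log2 change of 1.56 ± 0.28 (SE; limma, adjusted p = 0.00461). After median-ratio scaling the change was 1.82 (limma, adjusted p = 0.00487). Trachinotus_GLEAN_10002223, the fifth most abundant member in brain, was at 25.3, 22.7 and 19.4 in Tol livers, against 9.32, 15.3 and 7.88 in Intol livers (log2 change 1.03, limma, adjusted p = 0.0094).

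Trachinotus_GLEAN_10018174 was lower in Tol livers, at 14.7, 16.4 and 14.6, against 30.9, 28.1 and 37.1 in Intol livers. The Tol values were close together and all below the Intol values, with a log2 change of -1.02 ± 0.16 (SE; limma, adjusted p = 0.0022). After median-ratio scaling the liver change was -0.73 (limma, adjusted p = 0.00848). In brain this model was at 921, 938 and 957 in Tol, against 1102, 1024 and 962 in Intol libraries. There the groups were just apart (log2 change -0.13, limma, adjusted p = 0.301).

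Trachinotus_GLEAN_10003313 was lower in Tol livers too, at 7.29, 9.31 and 11.99, against 19.7, 16.5 and 20.8 in Intol livers, with no overlap (log2 change -0.94 ± 0.19, SE, limma, adjusted p = 0.00622). After median-ratio scaling the liver change was -0.66 (limma, adjusted p = 0.0326). In brain this model was at 405, 376 and 405 in Tol, against 393, 366 and 357 in Intol libraries, which overlapped (limma, adjusted p = 0.48). Members called in liver thus had brain changes of -0.11 to 0.39 where they were higher in Tol livers and of -0.31 to 0.09 where they were lower. In the fit of all 12 libraries, the Tol-minus-Intol change differed between the tissues for 13 of the 79 members (limma, adjusted p under 0.05), where 23.9% of 14817 models tested did. It was more positive in liver than in brain for 8 of them, against 3.66% of all models tested, and more negative for 5, against 20.2%. These shares rest on unscaled values. In liver alone, median-ratio scaling moved the share called lower in Tol from 29.6% to 17% of the models tested. With that scaling the 12-library fit called 12 members and 2778 models, whose directions are not given here. The 46 members not tested in liver entered this fit through their brain values, which the rule had made high. Where liver values are near 0, the difference restates the brain change with the opposite sign. Of the 13 members, 11 were among the 33 that had passed the filter in both tissues, and the counts are a description only. On simulated data this fit made more false calls than its threshold allows.

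**Figure D5:**
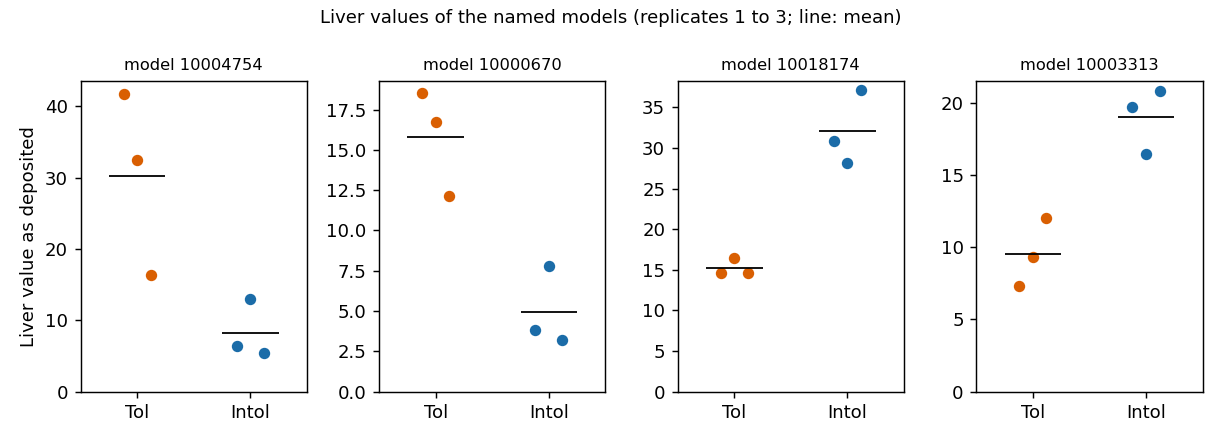
Liver values as deposited (vertical axis, starting at 0 and scaled for each panel) of the 2 brain-restricted models with the largest positive and the 2 with the largest negative Tol-minus-Intol changes in liver, with Tol left of Intol. Points are replicates 1 to 3 and lines are means of 3 libraries; in each panel the 3 Tol points do not overlap the 3 Intol points.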

How the data were processed

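The 12 libraries were grouped by the status and tissue in their labels. Per the labels' protocols, RNA with an integrity number above 8 was sequenced as 125-bp paired ends and cleaned reads were assembled with Trinity. For aligner, counter, build, annotation and scaling, the label texts and file headers name nothing (not given in the sources used here). The authors deposited, in each file, 1 value per gene model, which was read as FPKM: values have decimals and sum to unequal totals, and neither headers nor labels name a unit. One file held a further block headed as Intol brain replicate 1, whose 18490 values all equal that library's own. It was not used.

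Members were found by the rule in the report. Tol was compared with Intol within each tissue by limma 3.58.1 (R 4.3.3) on log2(value + 1), with variance trend, robust moderation and group means only. A gene model was tested where 3 or more libraries reached a value of 1, and a Benjamini-Hochberg adjusted p under 0.05 over all of them counted as a call. One fit of all 12 libraries gave the difference between the changes in liver and brain. The steps were tested on simulated data. There the 12-library fit made more false calls than its threshold allows, so its calls are given only with that limit. Python 3.11.15, NumPy 2.4.6, pandas 2.3.3 and matplotlib 3.10.9 handled tables and figures.

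No counts are given. In low-valued models, steps of whole reads were searched between brain libraries, and at most 3.65% of the models fell in any 0.02-wide bin of log2 ratios, so depth is unknown, and the precision of a value rests on its spread between 3 libraries. The rule for named members took the 5 with the highest brain mean, and up to 2 higher and 2 lower in Tol per tissue among calls. Where a direction had fewer calls it was filled with the largest changes whose Tol and Intol values did not overlap. Trachinotus_GLEAN_10018213 was named in addition, after its values had been seen. Members, lists and rules were chosen with earlier results of these data known. 0 gene models could be matched to a gene name, so marker lists were not used. The alternatives tried were other scalings, filters, pseudocounts and limma options, the replicate number as a block, all 12 libraries in 1 fit, each library left out, and other limits in the rule. Leaving out libraries from the 12-library fit was added after the data were seen.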

Additional observations from a re-analysis of the deposited data

Results flagged for a closer look

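For 7 of the members named by the rule the Tol-minus-Intol change differed between liver and brain by the interaction test over the 12 libraries (limma), where 23.9% of 14817 models tested and 13 of the 79 members did. Of these 13, 11 were among the 33 members that had passed the filter in both tissues. Values are differences, liver minus brain, between the log2(value + 1) changes. It was 1.85 for Trachinotus_GLEAN_10004754 (adjusted p = 0.0171), 1.17 for Trachinotus_GLEAN_10000670 (adjusted p = 0.0362) and 0.94 for Trachinotus_GLEAN_10002223 (adjusted p = 0.0247). It was -1.03 for Trachinotus_GLEAN_10003313 (adjusted p = 0.0059) and -0.89 for Trachinotus_GLEAN_10018174 (adjusted p = 0.00216). For Trachinotus_GLEAN_10002250, at 0.55 (adjusted p = 0.0247), and Trachinotus_GLEAN_10013092, at 0.52 (adjusted p = 0.0438), liver values were at most 0.15, so the difference restates the brain change, which itself did not pass the brain test. Over 16 alternatives the call was lost in 12 for Trachinotus_GLEAN_10013092 (adjusted p up to 0.0985), in 10 for Trachinotus_GLEAN_10000670 (up to 0.0814), in 6 for Trachinotus_GLEAN_10002250 (up to 0.501) and in 4 for Trachinotus_GLEAN_10002223 (up to 0.0558), mostly with a library left out. It was kept in all 16 for the other 3. As this fit made too many false calls on simulated data, adjusted p-values near the threshold carry little weight.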

How the results depend on the processing

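No member was called in brain under the scaling, filter, pseudocount, limma or block alternatives. With all 12 libraries in 1 fit 1 member was called lower, and with a library left out 0 to 1 were called higher and 0 lower. The members with intervals within 1.5-fold numbered 69 to 75 with a library left out, and 67 with all 12 libraries in 1 fit. Calls over all brain models were 3, but 158 with all 12 libraries, 1 without trend and robust options, 12 with a mean of at least 5, 8 under median-ratio scaling and 8 under quantile normalization, 5 with a pseudocount of 0.1, 15 with the replicate block, and 0 to 25 with a library left out (25 without Intol replicate 2, 11 without Tol replicate 3, 1 without Intol replicate 3 and 0 without Tol replicate 1 or 2 or Intol replicate 1). In liver, members called higher were 4, but 10 under both scalings, 8 with all 12 libraries and 3 to 7 with a library left out (7 without Intol liver replicate 2). Members called lower were 6, but 9 with all 12 libraries and 4 to 7 with a library left out. Calls over all liver models were 3381, but 4508 with all 12 libraries in 1 fit and 1648 with a mean of at least 5. With a library left out they were 2214 to 2918 (2214 without Intol replicate 3 and 2234 without Intol replicate 1). Members passing the interaction test were 13, and 6 to 16 with a library left out, a choice made after seeing the data; they were 6 without Tol brain replicate 1, 7 without Intol brain replicate 1 or Tol liver replicate 1, and 8 without Tol brain replicate 3 or Tol liver replicate 2. The brain share was 8.53% in Tol and 9.03% in Intol without the 10 most abundant of all brain models, which are not the first 10 members. With a library left out it was 10.92% to 11.02% in Tol and 11.1% to 11.5% in Intol. The rule found 187 models at a brain mean of at least 100, 28 at 400, 120 after scaling each library to the same sum, and 78 to 80 with a library left out. Whether replicate numbers pair the samples could not be decided from 3 libraries per group. Deviations of the same number correlated at -0.08, 0.131 and 0.179 in brain and 0.1, -0.124 and 0.081 in liver. Those of different numbers correlated at -0.247 to 0.116 in brain and -0.322 to 0.316 in liver. The cause of these shifts was not tested.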

Other observations

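Among the 4 members called higher in Tol livers, Tol replicate 1 was the highest and Tol replicate 3 the lowest Tol liver for all 4, and Intol replicate 2 was the highest Intol liver for 3. For these 3, Intol replicate 2 was also the highest Intol brain, as it was for 22 of the 79 members. Trachinotus_GLEAN_10004754 was there at 1352 against 1189 and 975 in the other Intol brains, and Trachinotus_GLEAN_10000670 at 307 against 231 and 208. Trachinotus_GLEAN_10002223 was at 1396 against 1262 and 1278. Tol replicate 1 was not the highest Tol brain for any of these 3 models. The labels do not say whether a liver and a brain library of the same number came from the same fish. Of the 6 members called lower in Tol livers, Tol replicate 1 was the highest Tol liver for 0 and Tol replicate 3 the lowest for 1. Intol replicate 2 was the highest Intol liver for 1 of these 6. The share of all liver models with such an order is not given here. The order was noticed in the values and was given no test.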
